A study of Homo sapiens with 6 samples.

Results

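Nucleoporins and nuclear transport receptors were followed after knockdown of CHAF1A, the large subunit of chromatin assembly factor 1, in RBE, an established human cholangiocarcinoma (bile duct cancer) cell line. The genes were taken by symbol: every protein-coding gene of the count table named NUP, KPNA, KPNB, IPO, XPO or TNPO with a number (or XPOT), which gave 47 of 63186 rows, 23 nucleoporins and 24 receptors. The si-CHAF1A group is 3 cultures transfected with siRNA against CHAF1A, and the si-Ctrl group is 3 cultures transfected with a control siRNA. All 6 cultures of this line were at about 60% confluency at transfection with Lipofectamine 3000, received fresh medium after 24 h and were harvested at 48 h. The labels do not say whether the siRNA was a single sequence or a pool, and nothing beyond the word biological says how the 3 replicates of a group were made, so p-values cover only the spread among these 6 samples, which may be technical.

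The nuclear pore complex is a ring-shaped channel through the nuclear envelope. Its scaffold is made of outer rings built from the Y complex and of an inner ring, its channel is lined by flexible proteins rich in phenylalanine-glycine repeats, and filaments and a basket extend from its cytoplasmic and nuclear faces. Proteins with a nuclear localisation signal are carried in by importins, those with an export signal are carried out by exportins, and the small GTPase Ran, loaded with GTP in the nucleus, releases import cargo and holds export cargo on its carrier. Dividing cells take the pores apart in mitosis and rebuild them afterwards, and proliferating cells assemble further pores in interphase.

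CHAF1A (ENSG00000167670) stood at 11.1, 12.9 and 11.2 CPM (reads of a gene relative to the TMM-adjusted library size) in the si-CHAF1A libraries, against 51.5, 59.8 and 51.0 CPM in the si-Ctrl libraries. The libraries held 15643381 to 20918997 counts. On the second principal component, with 11.2% of the variance, si-Ctrl 2 lay at -29.6 and the other controls at 14.9 and 13.9. Biliary epithelial markers, which fit the labelled origin, summed to 5319 to 5839 CPM in si-CHAF1A and 4111 to 4779 CPM in si-Ctrl, and 4 of the 6 rose while SOX9 fell. Of 5 hepatocyte markers, with sums of 42.4 to 52.6 CPM in si-CHAF1A and 33.9 to 41.6 CPM in si-Ctrl, 4 were under 1 CPM in every library and HNF4A rose. All 4 immune markers were under 1 CPM in every library, with sums of 0.178 to 0.517 CPM in si-CHAF1A and 0.556 to 0.832 CPM in si-Ctrl. The 5 fibroblast markers summed to 15.97 to 35.7 CPM in si-CHAF1A, against 8.66 to 11.5 CPM in si-Ctrl, and the 3 endothelial markers to 6.32 to 8.86 CPM in si-CHAF1A, against 2.41 to 3.71 CPM in si-Ctrl. Of these, PDGFRB and VWF rose past the test, and none of either list was at 0 in all libraries. COL1A2, a fibroblast collagen, was at 5.47 CPM in si-CHAF1A 1, and at 0.172 and 0.0561 CPM in si-CHAF1A 2 and 3, against 0 to 0.0640 CPM in the controls. The part of these markers in the results was not tested, and calls of members that change without si-CHAF1A 1 or si-Ctrl 2 are given with and without them.

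Promoters are shown here for the 4 members with the largest falls and, as a contrast, for KPNA1, the better expressed of the importin alpha genes that rose. Each runs from 250 bases before to 50 bases after a RefSeq start of the gene on GRCh38.p14, 5′ to 3′. That start can lie inside the GENCODE span of the gene given below, as at KPNA2 and NUP50. Capitals mark, on either strand, a CCAAT box (CCAAT), a cell cycle genes homology region (TTTGAA or TTCGAA), the palindromic NRF1 site and an E2F site (TTTCCCGC or TTTGGCGC).

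KPNA6, chr1:32107806-32108105, + strand: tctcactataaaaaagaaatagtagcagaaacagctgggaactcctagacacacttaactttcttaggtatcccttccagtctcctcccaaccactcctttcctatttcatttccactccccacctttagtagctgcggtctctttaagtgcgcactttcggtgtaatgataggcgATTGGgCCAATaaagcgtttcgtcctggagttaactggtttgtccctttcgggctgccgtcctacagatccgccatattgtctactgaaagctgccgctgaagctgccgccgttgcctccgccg

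KPNA2, chr17:68035485-68035784, + strand: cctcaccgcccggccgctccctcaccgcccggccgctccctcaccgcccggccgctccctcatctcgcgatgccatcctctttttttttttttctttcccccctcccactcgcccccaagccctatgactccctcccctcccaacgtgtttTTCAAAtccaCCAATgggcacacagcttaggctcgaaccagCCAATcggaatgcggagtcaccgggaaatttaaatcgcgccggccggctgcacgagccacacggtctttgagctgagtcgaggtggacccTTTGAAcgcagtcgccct

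NUP50, chr22:45163675-45163974, + strand: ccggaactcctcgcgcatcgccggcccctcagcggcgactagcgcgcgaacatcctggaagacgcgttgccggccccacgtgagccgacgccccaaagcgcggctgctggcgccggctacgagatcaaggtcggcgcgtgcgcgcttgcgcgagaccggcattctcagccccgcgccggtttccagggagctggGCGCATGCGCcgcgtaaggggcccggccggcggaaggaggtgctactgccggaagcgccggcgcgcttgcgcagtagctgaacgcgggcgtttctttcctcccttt

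NUP155, chr5:37371057-37371356, - strand: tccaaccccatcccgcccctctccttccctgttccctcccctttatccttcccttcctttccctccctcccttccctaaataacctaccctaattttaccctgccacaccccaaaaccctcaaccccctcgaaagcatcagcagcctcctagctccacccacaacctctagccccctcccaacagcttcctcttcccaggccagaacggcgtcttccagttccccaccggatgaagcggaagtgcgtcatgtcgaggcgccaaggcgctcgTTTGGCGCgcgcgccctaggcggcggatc

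KPNA1, chr3:122514890-122515189, - strand: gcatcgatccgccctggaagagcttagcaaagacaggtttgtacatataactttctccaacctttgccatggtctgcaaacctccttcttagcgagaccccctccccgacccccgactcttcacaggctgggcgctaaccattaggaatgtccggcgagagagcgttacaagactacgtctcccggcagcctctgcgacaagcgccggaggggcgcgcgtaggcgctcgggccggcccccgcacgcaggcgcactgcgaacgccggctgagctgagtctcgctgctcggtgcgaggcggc

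The promoter of KPNA2 held CCAAT at positions -89 and -58 and TTTGAA at position 33, counted from 1 at the start site, with the same word on the other strand at -99. That of KPNA6 held a CCAAT box on each strand, at -74 and -68. That of NUP50 held the NRF1 word at -56, and that of NUP155 an E2F word at 22. None of these words was in the KPNA1 window.

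Of 47 members, 45 passed the filter on low counts and were tested. In si-CHAF1A cells 20 of them fell and 3 rose past an edgeR adjusted p of 0.05, while among all 15911 tested genes 19.3% were lower and 18.5% higher (37.8% in either direction). The members' share of 44.4% lower stands above that background, and their 6.67% higher stands below it. The members are well expressed genes. Among the 6288 tested genes within 2 log2 units of their median control level of 106 CPM, a comparison chosen after the data were seen, 31.6% were lower and 18.7% higher. The members' median log2 fold change (si-CHAF1A over si-Ctrl) was -0.17, against -0.07 for genes at a similar level and 0.00 for all tested genes. Of the members 36 of 45 lay below 0, as did 7907 of all 15911 tested genes. All 3 si-CHAF1A libraries lay below all 3 si-Ctrl libraries at 26 of 45 members and above them at 3, against 24.1% of tested genes each way. Most changes were small, and among called members only KPNA7, KPNA6, KPNA2, NUP50 and NUP155 changed by more than the 0.48 log2 units of NUP107.

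**Figure D1:**
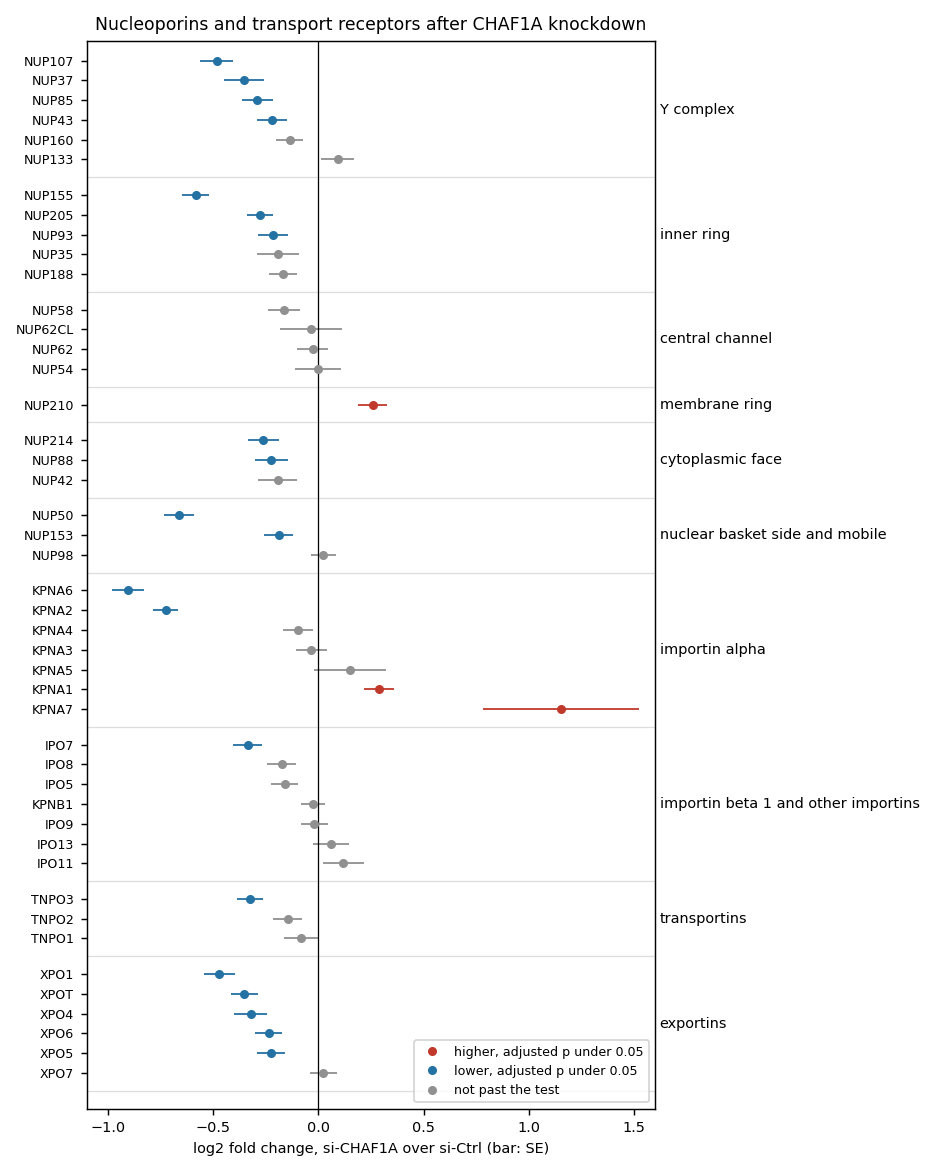
Log2 fold change of si-CHAF1A over si-Ctrl (horizontal axis) for the 45 tested members, grouped by role down the page, with bars for the SE and colour for the edgeR call. Of these, 20 lie to the left of 0 as lower, 3 to the right as higher and 22 did not pass the test, and the importin alpha genes span the whole range from KPNA6 to KPNA7.

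The calls of some members depended on single libraries. Of the 23 called members, 13 passed in all 13 alternative fits: KPNA6, KPNA2, NUP50, NUP155, NUP107, XPO1, XPOT, IPO7, TNPO3, XPO4, NUP85, NUP205 and KPNA1. Without si-CHAF1A 1, 13 members were lower, and without si-Ctrl 2, 28 were. The calls over all tested genes moved the same way, with 14.5% lower without si-CHAF1A 1 and 22.5% without si-Ctrl 2, against 19.3% with all libraries. The number that rose came to 1 without si-Ctrl 1 or without si-CHAF1A 3.

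The importin alpha family, the adaptors that bind the classical nuclear localisation signal and hand it to importin beta 1, showed the largest changes in opposite directions. KPNA2 (ENSG00000182481, chromosome 17, 68035519 to 68046842 on GRCh38) is the adaptor typical of proliferating cells. It stood at 267, 258 and 272 CPM in si-CHAF1A, against 433, 444 and 439 CPM in si-Ctrl. The groups lay far apart, and KPNA2 fell 1.65-fold (log2 fold change -0.72 ± 0.06 SE, adjusted p = 1.48e-07 by edgeR). KPNA6 (ENSG00000025800, chromosome 1, 32108038 to 32176568), which encodes importin alpha 7, stood at 82.1, 73.1 and 79.0 CPM in si-CHAF1A, against 158, 134 and 146 CPM in si-Ctrl. It fell 1.87-fold (log2 fold change -0.90 ± 0.08 SE, adjusted p = 2.39e-07 by edgeR), the largest fall among the members, and stood at -0.97 without si-Ctrl 2, its lowest control.

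KPNA1 (chromosome 3, 122421949 to 122514945), from the same branch of the family as KPNA5 and KPNA6, stood at 69.0, 64.7 and 68.5 CPM in si-CHAF1A, against 56.3, 53.9 and 55.5 CPM in si-Ctrl. It rose 1.22-fold (log2 fold change 0.29 ± 0.07 SE, adjusted p = 0.00377 by edgeR). Of its exon bases, 16.3% are shared with an antisense gene. KPNA7 (chromosome 7, 99173574 to 99207506), the closest relative of KPNA2 and best known from oocytes and early embryos, is barely expressed. It had 24, 25 and 23 counts in si-CHAF1A, against 9, 18 and 6 counts in si-Ctrl. Its level was 1.43, 1.44 and 1.29 CPM in si-CHAF1A and 0.576, 0.910 and 0.344 CPM in si-Ctrl (log2 fold change 1.15 ± 0.37 SE, adjusted p = 0.0226 by edgeR). That call held without si-Ctrl 2 (1.58, edgeR adjusted p = 0.00527). It was lost without any other library: the log2 fold change was 1.11 without si-Ctrl 1, 0.86 without si-Ctrl 3, and 1.13, 1.12 and 1.20 without si-CHAF1A 1, 2 and 3 (edgeR adjusted p from 0.0528 to 0.105).

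The 3 remaining adaptors did not pass the test. KPNA3 averaged 129 ± 4.20 CPM in si-CHAF1A and 132 ± 12.6 CPM in si-Ctrl (SD, n = 3 each), KPNA4 averaged 141 ± 1.42 CPM in si-CHAF1A and 150.5 ± 13.2 CPM in si-Ctrl, and KPNA5 averaged 7.72 ± 0.647 CPM in si-CHAF1A and 6.99 ± 1.68 CPM in si-Ctrl. Their log2 fold changes were -0.03, -0.10 and 0.15. Without si-Ctrl 2, KPNA3 and KPNA4 passed as lower, at -0.12 and -0.17 (edgeR adjusted p = 0.0418 and 0.00279).

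Per kilobase of annotated exon, the importin alpha pool summed to 148, 145 and 151 CPM per kb in si-CHAF1A, against 214, 207 and 215 CPM per kb in si-Ctrl. KPNA2 made up 57.4, 56.4 and 57.4% of that pool in si-CHAF1A and 64.5, 68.2 and 64.9% in si-Ctrl, so it remained its main member in every library. The share of KPNA6 was 7.04 ± 0.337% in si-CHAF1A and 9.20 ± 0.645% in si-Ctrl (SD, n = 3 each). The shares of KPNA1, KPNA3 and KPNA4 were 5.38 ± 0.119%, 19.4 ± 0.836% and 10.1 ± 0.122% in si-CHAF1A, against 3.08 ± 0.0361%, 13.9 ± 1.06% and 7.53 ± 0.515% in si-Ctrl. The groups did not overlap for any of these shares. The shares of a pool add up to a whole, so a fall in KPNA2 raises the others. Against their common partner KPNB1, the importin alpha pool per length stood at a ratio of 2.05, 1.98 and 2.11 in si-CHAF1A and 2.91, 2.85 and 2.87 in si-Ctrl. Summed levels, shares and ratios over members are descriptions and were not tested.

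**Figure D2:**
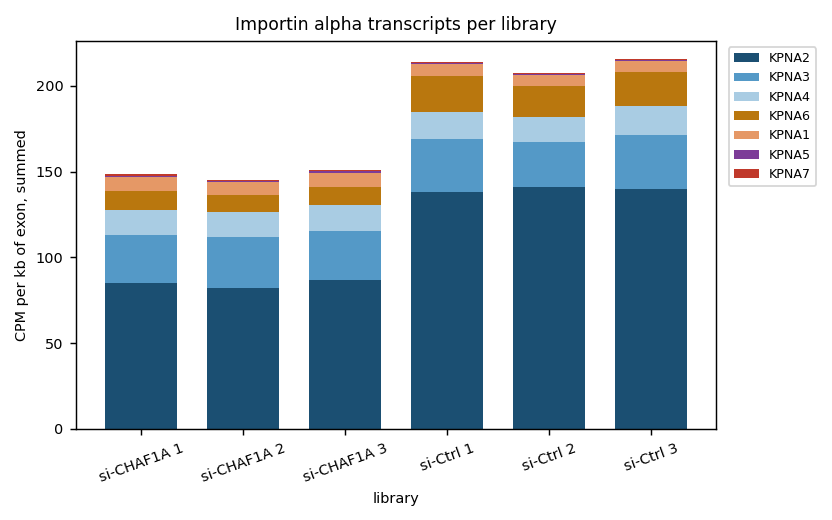
Level per kilobase of exon (vertical axis, CPM per kb) of the 7 importin alpha genes, stacked for each library, si-CHAF1A libraries on the left and si-Ctrl on the right. The stacks reach 145 to 151 CPM per kb in si-CHAF1A and 207 to 215 CPM per kb in si-Ctrl, and the KPNA2 segment takes up most of the difference.

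Importin beta 1, the carrier that docks at the pore with or without an importin alpha, did not pass the test. KPNB1 (chromosome 17, 47649476 to 47685505) stood at 557, 565 and 548 CPM in si-CHAF1A, against 564, 558 and 577 CPM in si-Ctrl. The groups overlapped, and the difference did not pass (log2 fold change -0.03 ± 0.06 SE, adjusted p = 0.753 by edgeR). With library totals or upper-quartile factors as the scale its direction turned, to 0.02. In control cells KPNB1 was at 73.8 CPM per kb, IPO7 at 78.0 and KPNA2 at 139.6, the 3 highest members per length. IPO7 and KPNB1 had control SDs of 7.65 and 1.22 CPM per kb, and that pair did not differ beyond its spread.

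Among the importins that bind cargo directly, IPO7 was the only 1 of 6 tested that fell. IPO7 (chromosome 11, 9384622 to 9448126), known as a carrier of ribosomal proteins and, with KPNB1, of linker histones, stood at 439, 454 and 450 CPM in si-CHAF1A, against 598, 501 and 596 CPM in si-Ctrl. It fell 1.26-fold (log2 fold change -0.34 ± 0.07 SE, adjusted p = 0.00145 by edgeR) and stood at -0.42 without si-Ctrl 2, the control nearest the knockdown libraries. IPO5, another carrier of ribosomal proteins, and IPO8, which carries Argonaute proteins, stood at -0.16 and -0.17 and did not pass (edgeR adjusted p = 0.0603 and 0.0632). Both passed without si-Ctrl 2, at -0.21 and -0.23 (edgeR adjusted p = 1.52e-05 and 0.00016). IPO9, a carrier of core histones H2A and H2B, averaged 173 ± 8.51 CPM in si-CHAF1A and 175 ± 4.10 CPM in si-Ctrl. IPO11 and IPO13 were at 0.12 and 0.06 on the log2 scale and did not pass. IPO4, a carrier of histones H3 and H4, was not tested: it had 6, 3 and 3 counts in si-CHAF1A and 8, 10 and 9 in si-Ctrl. In the annotation 69.3% of its exon bases also belong to a gene on the same strand (AL136295.4, with 0 to 2 counts), so its count is not a measure of its level.

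Of the transportins, TNPO3 fell. TNPO3 (chromosome 7, 128954180 to 129055173), the importer of serine-arginine-rich splicing factors, stood at 93.0, 94.5 and 97.0 CPM in si-CHAF1A, against 117, 121 and 118 CPM in si-Ctrl. It fell 1.25-fold (log2 fold change -0.32 ± 0.06 SE, adjusted p = 0.000826 by edgeR), with no overlap of the groups. TNPO1 and TNPO2, which import proteins such as hnRNP A1, were at -0.08 and -0.15 and did not pass. TNPO1 stood at 321, 344 and 330 CPM in si-CHAF1A, against 374, 299.5 and 382 CPM in si-Ctrl. Its lowest value is that of si-Ctrl 2, and without that library it passed as lower (-0.19, edgeR adjusted p = 7.24e-05).

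Of the 6 exportins taken by symbol 5 fell, where 19.3% of all tested genes and 31.6% of those at a similar level were lower. CSE1L, an exportin that the symbol rule does not take, was at -0.12 and did not pass with all libraries (edgeR adjusted p = 0.162). XPO1 (chromosome 2, 61477849 to 61538626), the main exporter of proteins with a leucine-rich export signal, stood at 250.2, 259 and 258 CPM in si-CHAF1A, against 386, 314 and 364 CPM in si-Ctrl. It fell 1.39-fold (log2 fold change -0.47 ± 0.07 SE, adjusted p = 0.000117 by edgeR). XPOT (chromosome 12, 64404350 to 64451127), the exporter of transfer RNA, stood at 234, 255 and 236 CPM in si-CHAF1A, against 319, 290.4 and 316 CPM in si-Ctrl (log2 fold change -0.35 ± 0.06 SE, adjusted p = 0.000509 by edgeR). XPO4 (chromosome 13, 20777329 to 20903048), which exports the translation factor eIF5A, stood at 85.9, 85.6 and 83.2 CPM in si-CHAF1A, against 116, 93.1 and 109 CPM in si-Ctrl (log2 fold change -0.32 ± 0.08 SE, adjusted p = 0.00481 by edgeR). The controls of XPO1 and XPO4 were lowest in si-Ctrl 2, and without it they stood at -0.56 and -0.41.

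XPO5, the exporter of microRNA precursors, averaged 106 ± 4.42 CPM in si-CHAF1A and 124 ± 2.82 CPM in si-Ctrl (SD, n = 3 each), and XPO6, the exporter of actin, averaged 213 ± 5.78 CPM in si-CHAF1A and 250.2 ± 14.8 CPM in si-Ctrl. They fell by 0.22 and 0.23 on the log2 scale (edgeR adjusted p = 0.0124 and 0.009). The call of XPO5 was lost without si-CHAF1A 1 or si-CHAF1A 3 (edgeR adjusted p = 0.0637 and 0.0758), and that of XPO6 without si-CHAF1A 3 (edgeR adjusted p = 0.0584). XPO7 was at 90.6 ± 3.64 CPM in si-CHAF1A and 89.2 ± 0.0587 CPM in si-Ctrl and did not pass. The summed level of the exportins taken by symbol was 986, 1015 and 975 CPM in si-CHAF1A, against 1276, 1179 and 1244 CPM in si-Ctrl.

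**Figure D3:**
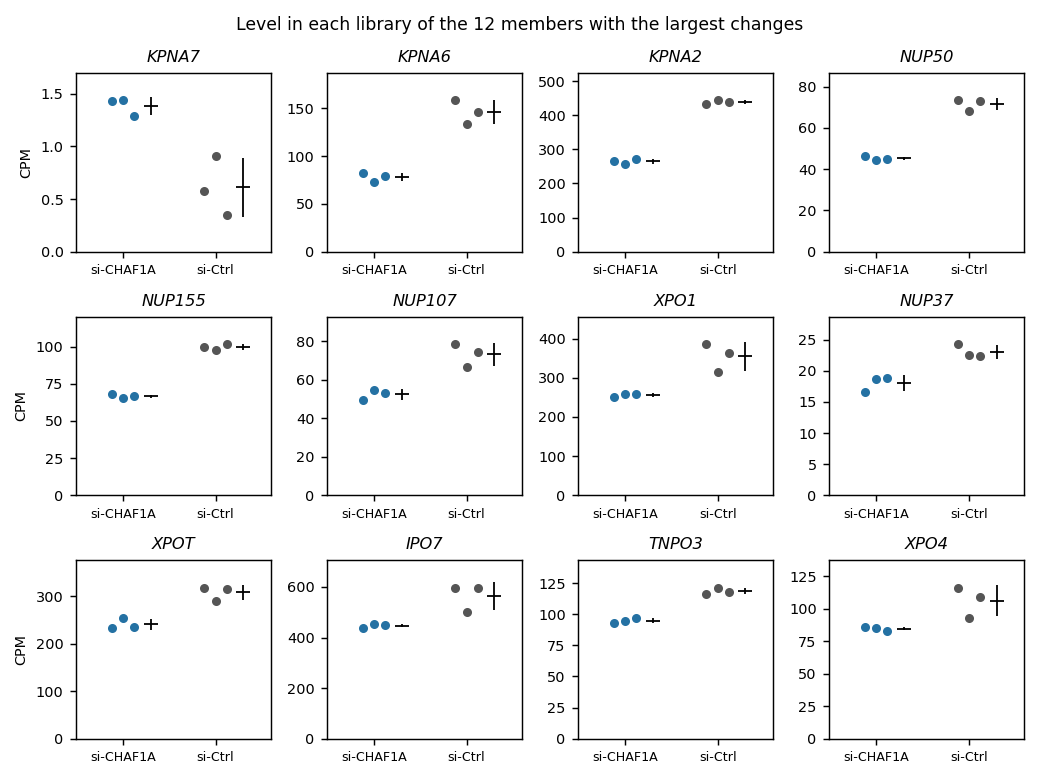
CPM in each library (points; vertical axes start at 0) for the 12 called members with the largest absolute log2 fold change, si-CHAF1A on the left and si-Ctrl on the right of each panel, with the mean and SD beside the points. The groups do not overlap in any panel, which the choice of large called changes favours, and 24.1% of tested genes were so separated each way. KPNA7 lies at 0.344 to 1.44 CPM.

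Of the 22 tested nucleoporins 11 fell and 1 rose (50% and 4.5%), beside 19.3% and 18.5% of all tested genes. Of the tested genes at a similar level, 31.6% were lower and 18.7% higher. In the Y complex, the building block of the outer rings, 4 of 6 members fell (66.7%): NUP107, NUP37, NUP85 and NUP43. The symbol rule does not take SEC13 and SEH1L, which also belong to the Y complex. They stood at 0.07 and -0.09 on the log2 scale and did not pass (edgeR adjusted p = 0.5935 and 0.405). NUP107 (chromosome 12, 68686734 to 68745809) stood at 49.5, 54.7 and 52.9 CPM in si-CHAF1A, against 78.6, 66.7 and 74.4 CPM in si-Ctrl (log2 fold change -0.48 ± 0.08 SE, adjusted p = 0.000174 by edgeR). NUP37 (chromosome 12, 102073103 to 102120124) stood at 16.5, 18.7 and 18.8 CPM in si-CHAF1A, against 24.3, 22.5 and 22.4 CPM in si-Ctrl (log2 fold change -0.35 ± 0.10 SE, adjusted p = 0.00825 by edgeR). Without si-CHAF1A 1, its lowest library, NUP37 stood at -0.30 and missed the threshold (edgeR adjusted p = 0.0527). NUP85 fell by 0.29 (edgeR adjusted p = 0.00584).

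NUP43 fell by 0.22 (edgeR adjusted p = 0.0209) and lost its call without si-Ctrl 1, si-CHAF1A 1 or si-CHAF1A 3 (edgeR adjusted p = 0.0692, 0.0962 and 0.104). NUP133 and NUP160, members of the Y complex's stem tip and of its long arm, stood at 0.09 and -0.14 and did not pass. NUP160 averaged 75.1 ± 1.63 CPM in si-CHAF1A and 82.5 ± 1.53 CPM in si-Ctrl (SD, n = 3 each) with no overlap, and passed without si-Ctrl 2 (edgeR adjusted p = 0.0185).

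In the inner ring, the scaffold around the channel, all 5 members lay below 0 and 3 fell (60%). Of all tested genes, 7907 of 15911 lay below 0, and 19.3% were lower. Of those near the members' median control level, 31.6% were lower, with a median log2 fold change of -0.07. NUP155 (chromosome 5, 37288137 to 37371181), which ties the ring to the membrane, stood at 67.8, 65.6 and 66.4 CPM in si-CHAF1A, against 99.5, 97.9 and 102 CPM in si-Ctrl. It fell (log2 fold change -0.58 ± 0.06 SE, adjusted p = 4.26e-06 by edgeR), with a narrow spread in either group. NUP205 fell by 0.28 (edgeR adjusted p = 0.00215), with 149 ± 4.36 CPM in si-CHAF1A and 180.0 ± 2.04 CPM in si-Ctrl (SD, n = 3 each). NUP93, which holds the ring's subcomplexes together, fell by 0.21 (edgeR adjusted p = 0.0272). It lost its call without si-Ctrl 1 or any si-CHAF1A library (edgeR adjusted p = 0.0877, 0.0859, 0.125 and 0.0502 without si-Ctrl 1 and si-CHAF1A 1, 2 and 3). NUP188, the member nearest the threshold from above, stood at 135, 141 and 140.1 CPM in si-CHAF1A, against 156, 166 and 147 CPM in si-Ctrl. Its groups did not overlap, but it did not pass (log2 fold change -0.17 ± 0.07 SE, adjusted p = 0.0559 by edgeR), except without si-Ctrl 2 or si-Ctrl 3 (edgeR adjusted p = 0.0227 and 0.0386). NUP35 was at -0.19 and did not pass.

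None of the 4 central channel members passed the edgeR, DESeq2 or limma-voom test, and 1 of them, NUP58, had an unadjusted edgeR p under 0.05 (0.0481). NUP62 and NUP54 averaged 67.7 ± 3.18 and 26.2 ± 2.98 CPM in si-CHAF1A, and 69.0 ± 4.07 and 26.3 ± 3.34 CPM in si-Ctrl (SD, n = 3 each). NUP58 stood at 146, 139 and 145 CPM in si-CHAF1A, against 168, 142 and 172 CPM in si-Ctrl (log2 fold change -0.16). Its si-Ctrl 2 value lies among the knockdown values, and without that library it passed as lower (-0.25, edgeR adjusted p = 8.68e-06). NUP62CL, a shorter relative of NUP62, averaged 8.03 ± 1.02 CPM in si-CHAF1A and 8.25 ± 1.15 CPM in si-Ctrl.

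NUP210, the transmembrane glycoprotein of the membrane ring, was the nucleoporin that rose. It stood at 268, 259 and 270.5 CPM in si-CHAF1A, against 207, 246 and 214 CPM in si-Ctrl (log2 fold change 0.26 ± 0.07 SE, adjusted p = 0.0091 by edgeR). Here si-Ctrl 2 was the highest control, and without it the value was 0.33. The call was lost without si-Ctrl 1 (0.21, edgeR adjusted p = 0.052) or si-CHAF1A 3 (0.24, edgeR adjusted p = 0.0514). Its relative NUP210L was not tested, with 3, 2 and 6 counts in si-CHAF1A and 3, 2 and 0 in si-Ctrl.

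On the cytoplasmic face, NUP214 and its partner NUP88, which hold the exit platform for messenger RNA, fell by 0.26 and 0.22 on the log2 scale (edgeR adjusted p = 0.00965 and 0.0313). NUP214 missed the threshold without si-CHAF1A 1 (edgeR adjusted p = 0.0517). NUP88 kept its call only without si-Ctrl 2, and its adjusted p in the other fits that leave out 1 library lay between 0.0543 and 0.140 (edgeR). Of NUP88's exon bases 9.82% are shared with RPAIN and 8.84% with RABEP1, both on the opposite strand. RABEP1 had 430, 469 and 441 counts in si-CHAF1A, against 652, 852 and 740 in si-Ctrl. RPAIN had 415, 461 and 435 counts in si-CHAF1A, against 344, 444 and 405 in si-Ctrl. The part of these overlaps in the call of NUP88 was not tested. NUP42, which binds the export factor GLE1, was at -0.19 and did not pass.

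On the nuclear side NUP50 showed the largest fall of the nucleoporins. NUP50 (chromosome 22, 45163841 to 45188015), a mobile protein that binds importin alpha at the basket and helps to release its cargo, stood at 46.2, 44.4 and 45.0 CPM in si-CHAF1A, against 73.3, 68.1 and 72.9 CPM in si-Ctrl. It fell 1.58-fold (log2 fold change -0.66 ± 0.07 SE, adjusted p = 2.94e-06 by edgeR). NUP153, to which NUP50 is tethered in the basket, stood at 118, 118 and 129 CPM in si-CHAF1A, against 145, 129.7 and 142 CPM in si-Ctrl. It is the called member nearest the threshold (log2 fold change -0.19 ± 0.07 SE, adjusted p = 0.0422 by edgeR), and its call held only without si-Ctrl 2 (edgeR adjusted p = 5.51e-05). Without any other library its adjusted p lay between 0.0545 and 0.164 (edgeR). NUP98, whose precursor is cut into NUP98 and the Y complex member NUP96, averaged 219.6 ± 4.41 CPM in si-CHAF1A and 216 ± 3.87 CPM in si-Ctrl (SD, n = 3 each) and did not pass.

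Of 11 further pore components that the symbol rule does not take, 3 fell and 2 rose (27.3% and 18.2%), near the 19.3% and 18.5% of all tested genes. NDC1, a membrane anchor of the pore, stood at 37.0, 39.6 and 36.9 CPM in si-CHAF1A, against 51.0, 49.5 and 50.01 CPM in si-Ctrl (log2 fold change -0.41, edgeR adjusted p = 0.000466). AHCTF1 (ELYS), which starts pore assembly on chromatin after mitosis, stood at 154, 164 and 162 CPM in si-CHAF1A, against 224, 190.5 and 218 CPM in si-Ctrl (log2 fold change -0.40, edgeR adjusted p = 0.000382). AAAS fell by 0.34. GLE1, which activates the helicase that strips export factors from messenger RNA at the cytoplasmic face, went the other way. It stood at 103, 104 and 112 CPM in si-CHAF1A, against 68.5, 63.7 and 59.5 CPM in si-Ctrl, a 1.66-fold rise (log2 fold change 0.73, edgeR adjusted p = 1.33e-06). POM121, another membrane anchor, rose by 0.26, a call lost without si-CHAF1A 2 (0.24, edgeR adjusted p = 0.052), while its near copy POM121C was at -0.04. Reads of these 2 copies could be assigned to either.

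Of 13 genes of the Ran cycle and other carriers, 5 fell (38.5%) and the other 8 did not pass. Lower were 19.3% of all tested genes and 31.6% of those near the members' median control level. RAN stood at 401, 417 and 412 CPM in si-CHAF1A, against 528, 560.5 and 518 CPM in si-Ctrl (log2 fold change -0.39, edgeR adjusted p = 0.000103). RCC1, the exchange factor that loads Ran with GTP on chromatin, stood at 44.3, 42.7 and 43.2 CPM in si-CHAF1A, against 55.1, 61.5 and 55.8 CPM in si-Ctrl (log2 fold change -0.41, edgeR adjusted p = 0.000504). RANBP1, which helps to discharge export complexes in the cytoplasm, stood at 51.2, 48.9 and 49.4 CPM in si-CHAF1A, against 77.3, 85.7 and 90.5 CPM in si-Ctrl (log2 fold change -0.76, edgeR adjusted p = 1.27e-06). The groups did not overlap for any of these 3 genes, which were chosen for their small p, so this adds no support. All si-CHAF1A libraries lay below all si-Ctrl libraries at 24.1% of tested genes.

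NXT1 and NXT2, partners of the messenger RNA exporter NXF1, fell by 0.32 and 0.44. The call of NXT1 was lost without si-Ctrl 3, si-CHAF1A 2 or si-CHAF1A 3 (edgeR adjusted p = 0.123, 0.152 and 0.0711). RANGAP1 was at -0.22 (edgeR adjusted p = 0.0504), with 425 CPM in si-Ctrl 2 against 335 and 336 CPM in the other controls, and passed without any 1 control (-0.28, -0.10 and -0.28 without si-Ctrl 1, 2 and 3, with an edgeR adjusted p of 0.022, 0.0392 and 0.0271). CSE1L, which returns importin alpha to the cytoplasm, averaged 259 ± 3.62 CPM in si-CHAF1A and 281 ± 19.0 CPM in si-Ctrl and did not pass (log2 fold change -0.12), except without si-Ctrl 2 (-0.18, edgeR adjusted p = 0.000333). Together these 24 genes were lower in 8 cases and higher in 2, or 33.3% and 8.33%, beside 19.3% and 18.5% of all tested genes. Of the tested genes near the members' median control level, 31.6% were lower and 18.7% higher, so the share of falls lay close to theirs. Not all of these 24 genes are at that level. Without si-Ctrl 2, 12 were lower and 5 higher, in a fit that called 22.5% of all tested genes lower and 21.3% higher. Besides CSE1L and RANGAP1, the calls gained there were RANBP2 at -0.13 and RAE1 at -0.15 as lower, and NUTF2 at 0.19, SEC13 at 0.17 and RANBP3 at 0.18 as higher (edgeR adjusted p from 0.00144 to 0.0488).

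**Figure D4:**
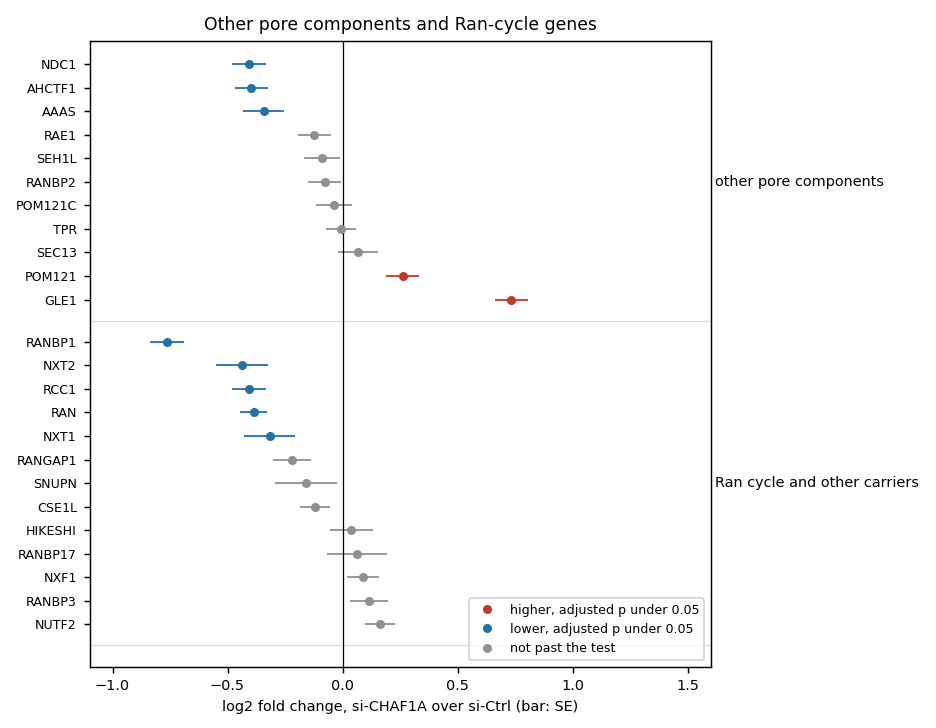
Log2 fold change of si-CHAF1A over si-Ctrl (horizontal axis) for 11 other pore components and 13 genes of the Ran cycle and other carriers, with bars for the SE and colour for the edgeR call. GLE1 at 0.73 and POM121 at 0.26 rose, and 8 genes from RANBP1 at -0.76 to NXT1 at -0.32 fell.

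Promoters of 41 members from the RefSeq table were used, and XPO7, on chromosome 8, was left out of this set. CCAAT was in 12 of 19 promoters of members that fell (63.2%) and in 9 of 22 others (40.9%), while 40.1% of all lower genes, 36.1% of tested genes and 35.7% of 27305 promoters held it. TTTGAA or TTCGAA was in 5 of 19 (26.3%) and 3 of 22 (13.6%), against 14.4% of all lower genes, 11.2% of tested genes and 16.6% of all promoters. The NRF1 word was in NUP50, NUP107 and NUP62, and in 3.3% of all lower genes, 2.27% of tested genes and 1.36% of all promoters. The E2F words were in NUP155 alone of the members, and in 4.83% of all lower genes, 3.54% of tested genes and 2.31% of all promoters. CACGTG, the E-box, was in 2 of 19 (10.5%) and 4 of 22 (18.2%), against 267 of 2421 lower genes, 9.76% of tested genes and 7.43% of all promoters, so its share among members that fell lay near the background. GGGCGG, the GC box, was in 10 of 19 (52.6%) and 11 of 22, below the 69.4% of all lower genes and 68.8% of tested genes and above the 44.6% of all promoters. Both strands were searched, the NRF1 word reads the same on both, and no words of different motifs share letters in the promoters shown. These are matches of letters, not shown to be bound, and only 1 start per gene was searched.

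An earlier scan of these same data had found the words GAAGAGA and AAGAGAA, which overlap by 6 bases, to be more frequent in the 3′ UTRs of lower genes. Either word was in 11 of 20 members that fell (55.0%), 10 of 22 that did not pass (45.5%) and 1 of 3 that rose. Among tested genes the shares were 37.8% of 2799 lower, 27.1% of 7044 that did not pass and 24.7% of 2554 higher. The words were chosen from these same data, so their larger share among lower genes is no independent result. Median 3′ UTR lengths were 1240 and 1420 bases in members that fell and did not pass, and 1100 and 984 in such tested genes. KPNA6, NUP50 and XPO5 carried the 8-base run of both words. It is shown with its surroundings for the first 2, together with the site of NUP155 (25 bases each, from GENCODE 29 transcripts). Capitals mark a single word, so the last base of the run is in lower case. KPNA2, XPO1 and NUP107 carried neither.

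KPNA6: tccaaatttGAAGAGAaaatgtatt

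NUP50: aaagtcatgGAAGAGAaaatcgtgt

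NUP155: cggttaggaAAGAGAAagctatctt

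The siRNA sequence is not given in the sources used here, and the part of these words in the results was not tested. In RNA from whole cultures, fewer cells of a kind (such as cells in division) and less RNA per cell cannot be told apart. The authors' counting setting for strand is not given in the sources used here, and 23 of 47 members share exon bases with other annotated genes. The shared part was under 20% of the exon bases in 20 of them, and was 70.1% in IPO4, 22.6% in IPO11 and 21.1% in NUP62.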

How the data were processed

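Raw read counts per Ensembl gene for 6 libraries (3 per group), deposited by the authors as 1 table without normalisation, were used. The submitters' processing notes name fastp 0.20.1, HISAT2 2.1.0, SAMtools 1.9, featureCounts 2.0.1, StringTie 2.1.4 and hg38, without roles or settings. The columns named NC and si were read as si-Ctrl and si-CHAF1A, and CHAF1A was lower in the si columns. No column of other samples was present (0). Symbols (62665 of 63186 rows) came from a gene name table, and types, positions and exon lengths from GENCODE 29 (58173 rows). Of 65 rows whose symbol matches the rule, 18 are not protein-coding.

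Genes kept by filterByExpr (minimum count 10, minimum total 15) entered the test of edgeR 4.0.16 under R 4.3.3 (robust quasi-likelihood, TMM, two-sided, no covariate), checked on simulated counts, with Benjamini-Hochberg adjustment over all 15911 genes. DESeq2 1.42.0 and limma-voom 3.58.1 were alternatives. SE is the log2 fold change divided by the square root of F. Level per length is CPM per kilobase of all annotated exon bases, which overstates the length of the transcripts in use. Members and lists were chosen with earlier results of these data known. Values in every library are given for the 12 called members with the largest changes, the 3 highest per length, those nearest the threshold and 6 pathway genes with the smallest p. Others singled out were chosen after their values were seen. No replicate pair was a duplicate (chi-square per degree of freedom 2.30 to 13.7).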

Additional observations from a re-analysis of the deposited data

How the results depend on the processing

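The 20 falls and 3 rises among the members came to 20 and 3 with RLE size factors, DESeq2 and limma-voom, and 19 and 3 without a filter on low counts. They came to 16 and 3 with library totals only or upper-quartile factors, which moved all genes by 0.05 on the log2 scale. Over all tested genes, the main fit called 3064 lower and 2944 higher. These came to 2455 and 3447 with library totals, and to 2562 and 3439 with upper-quartile factors. They were 3032 and 2967 with RLE size factors, 2827 and 2702 with DESeq2, 2989 and 2916 with limma-voom, and 3127 and 3013 without the filter. Leaving out 1 library gave 13 to 28 members lower and 1 to 3 higher, and 7 to 12 lower and 1 to 5 higher of the other pore and Ran-cycle genes, beside 14.3 to 22.5% lower and 14.2 to 21.3% higher of all tested genes. The replicate numbers do not pair the libraries (correlations of same-numbered deviations -0.0859, -0.0643 and -0.00313). With the replicate block, 16 members were lower and 3 higher, and NUP43, NUP88, NUP93 and NUP153 did not pass. That fit called 2723 of all tested genes lower and 2675 higher. The members that changed direction were not called in either fit. With library totals and upper-quartile factors, NUP54 stood at 0.0464 and 0.044, NUP62 at 0.025 and 0.0192, NUP62CL at 0.0146 and 0.012, KPNA3 at 0.0146 and 0.0125, IPO9 at 0.0303 and 0.0264 and KPNB1 at 0.0239 and 0.02. NUP54 was at 0.0005 with RLE size factors and 0.0032 with limma-voom. Over the fits that leave out 1 library, log2 fold changes ran from -0.107 to 0.0796 for NUP54, -0.0642 to 0.0157 for NUP62, -0.156 to 0.0421 for NUP62CL, -0.117 to 0.0077 for KPNA3, -0.0574 to 0.0113 for IPO9, -0.0491 to 0.255 for KPNA5 and -0.0033 to 0.126 for IPO13. The log2 ratio of summed levels moved beyond the replicate spread for the inner ring (-0.28, and -0.23 with library totals), the basket and mobile members (-0.14, and -0.0915 with library totals) and importin alpha (-0.43, and -0.52 per kilobase of exon). The cause of these shifts was not tested. At 6 to 25 counts, KPNA7 is limited by depth, and IPO4 and NUP210L are below what could be tested.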
